A study of Mus musculus with 6 samples.

Results

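The mammalian circadian clock is a transcriptional feedback loop that runs in nearly every cell, skeletal muscle fibers included. Arntl (BMAL1) pairs with Clock or its relative Npas2 and switches on genes that carry E-boxes, among them the Per and Cry genes, whose protein products block the pair, and Nr1d1 and Nr1d2, whose products (REV-ERBα and REV-ERBβ) repress Arntl through ROR elements. In mouse tissues Arntl transcripts peak at about the opposite time of day to those of Nr1d1, the Per genes and the output gene Dbp, and muscle clocks respond to activity, feeding and glucocorticoids.

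Transcripts of these 10 genes (Arntl, Clock, Npas2, Per1, Per2, Per3, Cry1, Cry2, Nr1d1 and Nr1d2) were examined in slow-dominant soleus (Sol) muscle of mice after voluntary wheel running (VWR). They were taken by symbol from a table of 24411 genes, and 9 of the 10 (all but Npas2) passed the expression filter together with 12828 genes in all. The set was picked because Arntl was higher and Per1 lower in mice lacking LSD1 in muscle, so differences between genotypes in these 10 genes are given below as a description, with no test. The question was whether they differed in the same way in every mouse, and whether genes of opposite timing moved in opposite directions.

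RNA came from 3 WT and 3 LSD1-mKO mice, each sequenced as 1 library. Sedentary mice were not part of it. LSD1-mKO mice were Lsd1 flox/flox and carried a tamoxifen-inducible CreERT2 recombinase driven by the human ACTA1 promoter, which is active in skeletal muscle fibers. The paper reports marginal LSD1 in muscle after deletion and gives resident hematopoietic and vascular cells as its probable source. WT mice carried floxed Lsd1 without CreERT2. Both groups were C57BL/6 and, per the methods, male. They were 8 weeks old when housed singly with a wheel, and stayed with it for 38 days. Both received tamoxifen at 75 mg/kg for 5 days once 3 days of familiarization had passed. The last hours of the experiment were spent without food or wheel access. The facility had a daily light-dark cycle, but the clock time of collection is not given in the sources used here. With 1 time point per mouse, a shift in the phase of the clock and a difference in level at a given phase cannot be told apart. Library totals ran from 8940208 to 10989847 estimated counts in WT and from 10984640 to 13798061 in LSD1-mKO.

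Putative regulatory letters near the start sites are shown first, because the E-box, D-box and ROR element are the sequences through which the loop is known to be wired. RefSeq windows of GRCm38.p6, from 250 bases before to 50 after a gene's start, were at hand for 9 of the 10 genes (13 windows) and were searched on both strands. No window was at hand for Per2, so its start was not searched. The letters searched were CACGTG (E-box), CACGTT (E′-box) and TTANGTAA (D-box), and those of the ROR element, which occurred in 7.15%, 4.68%, 2.32% and 0.219% of all 32851 windows of this length. TGACGTCA (the cyclic AMP element) and the letters of the glucocorticoid element, held by 1.79% and 0.475% of all windows, were in none of the 13. An E′-box on the opposite strand reads AACGTG. Each run of 30 bases below is written 5′ to 3′ on the strand of its gene, with the match in capitals; Arntl and Per1 lie on the plus strand and the others on the minus strand.
Arntl ROR element, chr7:113207528-113207557: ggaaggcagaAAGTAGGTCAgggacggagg
Per1 E-box, chr11:69098771-69098800: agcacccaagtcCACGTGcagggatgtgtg
Per3 first D-box, chr4:151044852-151044881: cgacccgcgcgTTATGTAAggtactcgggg
Per3 second D-box, chr4:151044805-151044834: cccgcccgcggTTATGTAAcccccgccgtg
Cry1 E-box, chr10:85185097-85185126: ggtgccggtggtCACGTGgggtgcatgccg
Cry1 E′-box, chr10:85185116-85185145: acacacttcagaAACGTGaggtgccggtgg
Cry2 E′-box, chr2:92434218-92434247: acacatggtgggAACGTGagggggcggagc
Nr1d1 E′-box, chr11:98775388-98775417: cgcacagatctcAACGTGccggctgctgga
Distances are from the RefSeq start of each window, which for Per1 is an internal start within the GENCODE gene given below. The match in Arntl began 28 bases into the transcript. The matches of the other genes began 28 to 205 bases before these starts, with Nr1d1 the nearest and the first D-box of Per3 the farthest. Matches were found in 6 of the 9 genes with a window. A match of letters is a description and does not show that a factor bound there.

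The labels were checked with the targeted gene. Kdm1a, which encodes LSD1, was at 40.5, 38.2 and 33.6 counts per 1000000 after TMM normalization (CPM) in the WT mice and at 14.6, 16.6 and 16.6 in the LSD1-mKO mice, here and below in the order of replicates 1 to 3. Every LSD1-mKO mouse was below every WT mouse. LSD1-mKO differed from WT by -1.23 on the log2 scale (standard error 0.11; adjusted p = 0.0160, edgeR with Benjamini-Hochberg adjustment), and an exact permutation test over the 6 mice gave a 2-sided p of 0.1, the smallest that 3 against 3 allows. The edgeR call was lost on leaving out WT replicate 2 or any one LSD1-mKO mouse, with Benjamini-Hochberg adjusted p from 0.111 to 0.209. The muscle also had the transcripts of slow fibers. All 10 slow muscle genes (Myh7, Myl2, Myl3, Tnni1, Tnnt1, Tnnc1, Tpm3, Atp2a2, Casq2 and Myoz2) were detected and overlapped between genotypes, with log2 fold changes from -0.07 to 0.31 and none called by edgeR or DESeq2. Myh7, the slow myosin heavy chain, averaged 13827 ± 1598 CPM in WT and 13360 ± 1845 in LSD1-mKO (SD, n = 3 each). Transcripts of fast fibers were abundant too. The 11 fast muscle genes measured summed to 77340, 53530 and 63372 CPM in WT and 65645, 53513 and 65827 in LSD1-mKO. The 10 slow muscle genes summed to less in every mouse, 47176, 37645 and 42838 CPM in WT and 46640, 49861 and 41039 in LSD1-mKO.

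Markers of other cell types differed among mice within a genotype as well as between genotypes. The summed level of 6 fibroblast genes (Col1a2 the most abundant in WT and Dcn in LSD1-mKO) was 1329, 3437 and 4395 CPM in the WT mice and 2801, 1361 and 1488 in the LSD1-mKO mice. That of 8 immune genes (Lyz2 the most abundant, Cd3e at or near 0) was 113, 343 and 275 in WT and 216, 114 and 164 in LSD1-mKO. WT replicate 1 had the lowest value among WT for all 6 fibroblast, all 7 endothelial and all 7 immune genes tested, against 39.9% of all genes. In LSD1-mKO all 6 fibroblast and all 7 immune genes had negative log2 fold changes, as did 7027 of all 12828 genes tested. The medians of the fibroblast and immune lists were -0.73 and -0.57. These medians were -0.28 without WT replicate 3 for the fibroblast genes and -0.23 without WT replicate 2 for the immune genes, and -1.11 and -0.95 without LSD1-mKO replicate 1. For such lists, fewer cells of a type and less RNA per cell cannot be told apart in whole muscle. None of these genes was called between genotypes by edgeR or DESeq2.

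**Figure D1:**
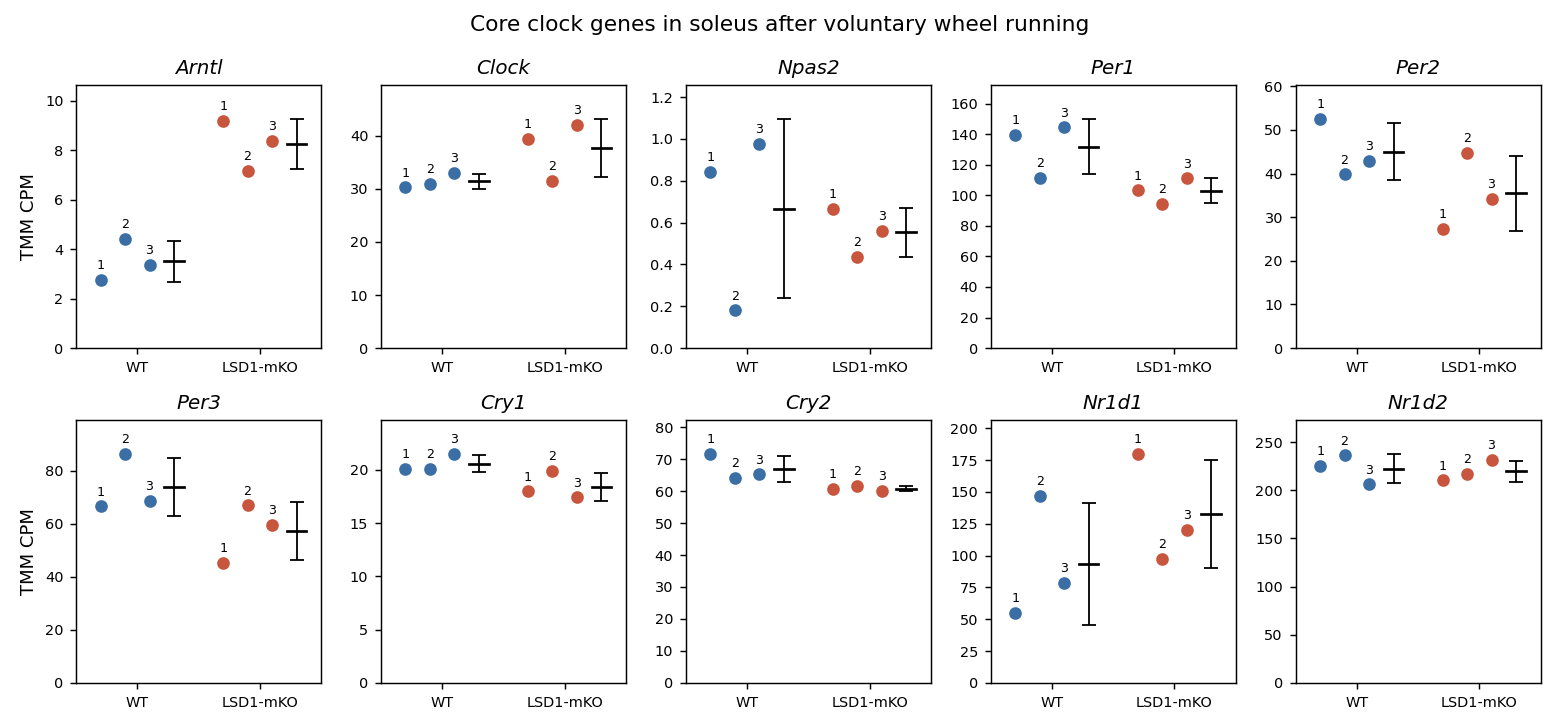
TMM CPM of the 10 core clock genes in each mouse (y axes from 0, one scale per gene), with WT in blue, LSD1-mKO in red and the replicate number above each point; the line and bars beside each group are the mean and SD of 3 mice. Arntl lies between 2.77 and 4.41 CPM in WT and between 7.17 and 9.17 in LSD1-mKO, while Nr1d2 has the same level in both groups within its spread and Nr1d1 varies 2.66-fold among the WT mice.

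Arntl differed more between genotypes than the other 8 genes tested. It lies at chr7:113207465-113314126 (GRCm38, GENCODE vM21, as are the positions that follow). Its level was 2.77, 4.41 and 3.38 CPM in the WT mice and 9.17, 7.17 and 8.38 CPM in the LSD1-mKO mice. The lowest LSD1-mKO mouse was thus above the highest WT mouse, and the means were 3.52 ± 0.83 (SD, n = 3) and 8.24 ± 1.01 (SD, n = 3), a 2.34-fold difference. The fitted log2 fold change was 1.21 (standard error 0.21), and stayed between 1.08 and 1.41 when any 1 mouse was left out. These are low counts, 23, 49 and 38 in WT against 124, 99 and 90 in LSD1-mKO. For the closest pair, the 95% Poisson intervals met at their edges, 3.26 to 5.83 CPM in WT replicate 2 and 5.82 to 8.72 CPM in LSD1-mKO replicate 2. Such intervals cover counting error only. Arntl shares 33 exon bases with the antisense gene Gm45355, and whether the counting used strand is not given in the sources used here.

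The partners of Arntl differed less or were barely detected. Clock (chr5:76209868-76304792) measured 30.3, 31.0 and 33.0 CPM in WT, and 39.4, 31.6 and 42.0 CPM in LSD1-mKO. LSD1-mKO replicate 2 lay among the WT mice and the other 2 LSD1-mKO mice lay above all of them. The means were 31.4 ± 1.40 and 37.7 ± 5.44 (SD, n = 3 each), a log2 fold change of 0.26 (standard error 0.12). Npas2 (chr1:39193731-39363236) had 7, 2 and 11 counts in WT and 9, 6 and 6 in LSD1-mKO, so no fold change is given.

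The 3 Per genes, which encode the PERIOD repressors, all had lower means in LSD1-mKO. Per1 (chr11:69095217-69109960), which is also an acute target of glucocorticoids and cyclic AMP signalling, measured 139.7, 111.3 and 144.4 CPM in WT, and 103.1, 94.5 and 111.0 CPM in LSD1-mKO. Every WT mouse had more than any LSD1-mKO mouse, but the gap between WT replicate 2 and LSD1-mKO replicate 3 was smaller than the counting error of either. The means were 132 ± 17.9 and 103 ± 8.24 (SD, n = 3 each), 78.1% of WT, with a log2 fold change of -0.36 (standard error 0.12). Per2 (chr1:91415982-91459324) measured 52.4, 39.8 and 42.8 CPM in WT, and 27.4, 44.7 and 34.3 CPM in LSD1-mKO. Here LSD1-mKO replicates 1 and 3 were below every WT mouse, whereas replicate 2 was above WT replicates 2 and 3. Per3 (chr4:151003652-151044665), whose window holds both D-boxes shown above, measured 66.5, 86.3 and 68.8 CPM in WT, and 45.4, 67.0 and 59.5 CPM in LSD1-mKO. Again LSD1-mKO replicate 1 was lowest and replicate 2 lay among the WT mice. The log2 fold changes were -0.34 (standard error 0.18) for Per2 and -0.37 (standard error 0.16) for Per3, with ranges of -0.54 to -0.18 and -0.49 to -0.22 when 1 mouse was left out.

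The cryptochromes, partners of the PER proteins, differed by little. Cry1 (chr10:85131700-85185064) measured 20.1, 20.1 and 21.5 CPM in WT, and 18.0, 19.9 and 17.4 CPM in LSD1-mKO. Cry2 (chr2:92403646-92434043) measured 71.6, 64.1 and 65.2 CPM in WT, and 60.6, 61.6 and 60.1 CPM in LSD1-mKO. For both genes every LSD1-mKO mouse was below every WT mouse, by a margin within counting error. The log2 fold changes were -0.16 (standard error 0.10) and -0.14 (standard error 0.08), and that of Cry2 was -0.09 without WT replicate 1. Cry2 shares 295 exon bases with D930015M05Rik on the opposite strand.

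In the REV-ERB arm of the loop, Nr1d1 was the most variable of the 9 genes tested and Nr1d2 one of the steadiest. Nr1d1 (chr11:98767932-98775333) measured 55.2, 147 and 78.3 CPM in WT, and 180, 97.6 and 121 CPM in LSD1-mKO. The groups overlapped, with WT replicate 2 above 2 of the 3 LSD1-mKO mice. The means were 93.5 ± 47.7 and 133 ± 42.4 (SD, n = 3 each), and the log2 fold change of 0.50 (standard error 0.35) was 0.22 once LSD1-mKO replicate 1 was dropped and 0.99 once WT replicate 2 was. Nr1d1 shares 263 exon bases with Thra, the thyroid hormone receptor gene on the opposite strand. Thra itself was at 57.0 ± 6.24 CPM in WT against 61.3 ± 1.78 in LSD1-mKO (SD, n = 3 each; adjusted p = 0.868, edgeR with Benjamini-Hochberg adjustment). Nr1d2 (chr14:18204054-18239127) measured 225, 236 and 206 CPM in WT, and 210, 217 and 232 CPM in LSD1-mKO. The fitted log2 fold change came to -0.02 (standard error 0.09), and its sign depended on which mice were included.

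In counts, 4 of the 9 tested genes had groups that did not overlap (Arntl above WT; Per1, Cry1 and Cry2 below), where 12.7% of all genes tested had such groups, 6.63% above and 6.10% below. Since the genes were picked on this contrast, nothing is read from that count. It also depended on the scaling. With DESeq2 size factors or upper-quartile scaling only Arntl (above) and Cry2 (below) were apart, and with library size alone or per-length values (TPM) Arntl, Per1 and Cry2 were.

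Per-length levels set the genes in an order that was much the same in both genotypes. In WT the order was Nr1d2 (106 ± 12.3 TPM), Nr1d1 (78.3 ± 45.0), Per1 (62.5 ± 6.59), Cry2 (37.4 ± 0.85), Per3 (27.6 ± 5.98), Per2 (17.1 ± 1.16), Cry1 (15.1 ± 1.33), Clock (7.18 ± 0.72), Arntl (2.66 ± 0.82) and Npas2 (0.34 ± 0.22), each the mean TPM ± SD of 3 mice. Among neighbours in that order, the mice of Nr1d2 and Nr1d1 overlapped, as did those of Nr1d1 and Per1. In LSD1-mKO Nr1d1 came first at 107.5 ± 33.8 TPM and Nr1d2 next at 104 ± 5.66, which overlapped, and Cry1 and Per2 overlapped at 13.4 TPM each. Arntl stayed the lowest of the filtered genes in LSD1-mKO at 6.11 ± 0.73 TPM, next to Clock at 8.53 ± 1.23 (SD, n = 3 each).

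**Figure D2:**
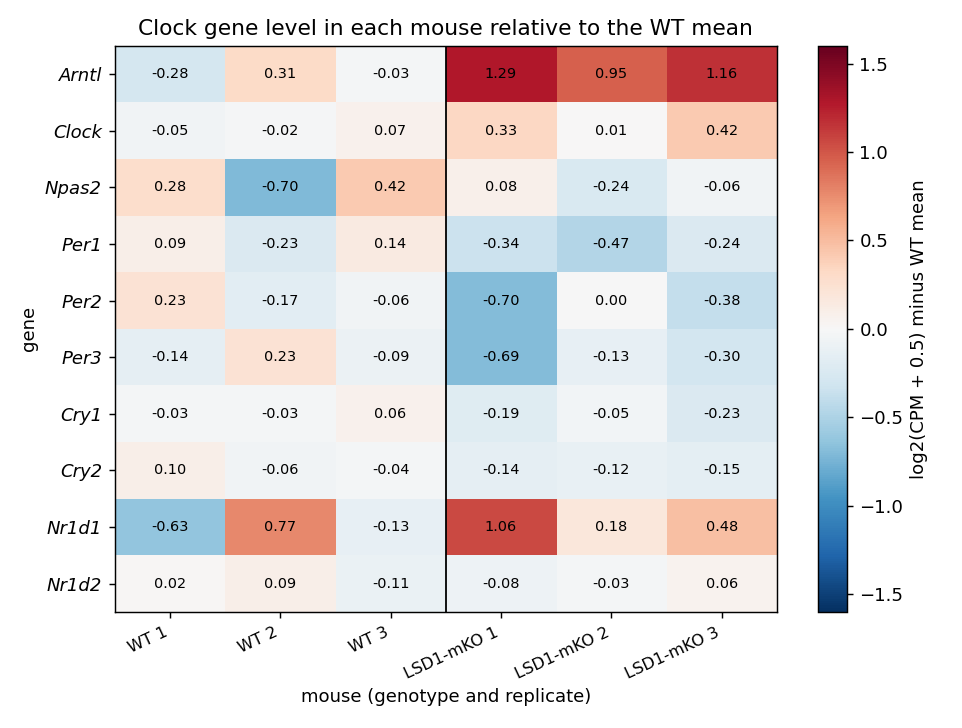
Log2(CPM + 0.5) of each core clock gene (rows) in each mouse (columns) minus the mean of the 3 WT mice; red is above and blue below the WT mean, with the value printed in each cell. LSD1-mKO replicate 1 departs most, from 1.29 for Arntl to -0.70 for Per2, LSD1-mKO replicate 2 has Clock and Per2 at the WT mean, and Nr1d1 ranges from -0.63 to 0.77 within WT.

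The mice differed within each genotype as well. LSD1-mKO replicate 1 had the highest Arntl and Nr1d1 of the 6 mice and the lowest Per2 and Per3. Relative to the WT mean of log2(CPM + 0.5), its values were 1.29 for Arntl, 1.06 for Nr1d1, -0.70 for Per2 and -0.69 for Per3. LSD1-mKO replicate 2 had Arntl at 0.95 and the lowest Per1 of the 6 mice (-0.47), but Clock at 0.01, Per2 at 0.00, Per3 at -0.13 and Nr1d1 at 0.18. LSD1-mKO replicate 3 lay between these for Arntl (1.16), Nr1d1 (0.48), Per2 (-0.38) and Per3 (-0.30), and had the highest Clock. Arntl was thus the gene farthest from the WT mean in each of the 3 LSD1-mKO mice.

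Within WT the mouse with the most Arntl was also the one with the most Nr1d1, and the same held within LSD1-mKO. The order from high to low was replicate 2, 3, 1 in WT and 1, 3, 2 in LSD1-mKO for both genes. With 3 mice per genotype such a match is easily met, and the share of all genes with this order was not counted. Bhlhe41, an E-box repressor singled out after its values were seen, had this order too (34.6, 82.5 and 59.2 CPM in WT, and 65.2, 62.6 and 64.8 in LSD1-mKO). So did the summed level of the immune genes given above (113, 343 and 275 CPM in WT, and 216, 114 and 164 in LSD1-mKO), and its part in the order of Arntl and Nr1d1 was not tested. Between genotypes the immune genes had the opposite direction to Arntl, with a median log2 fold change of -0.57 over the 7 tested. Per3, Dbp and Hlf shared the WT order of Arntl but had its reverse in LSD1-mKO, where replicate 2 was highest.

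**Figure D3:**
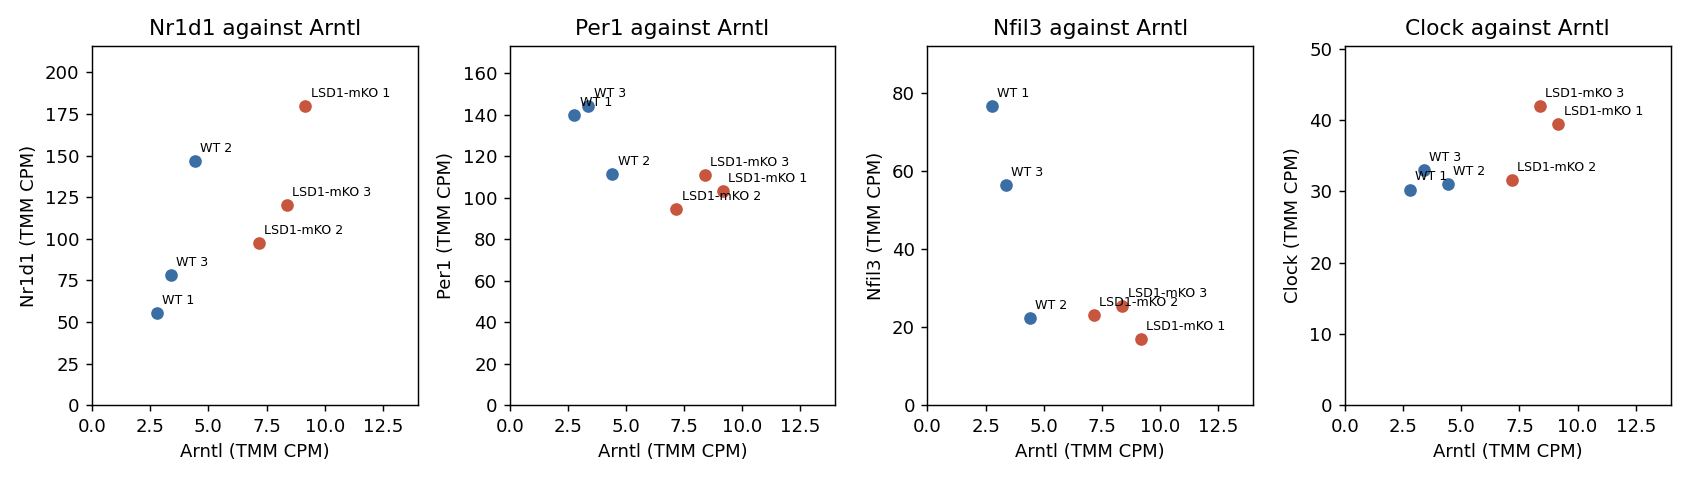
TMM CPM of Nr1d1, Per1, Nfil3 and Clock (y axes, from 0) against TMM CPM of Arntl (x axis, from 0), with 1 point per mouse, WT in blue and LSD1-mKO in red. Within each genotype Nr1d1 follows the order of Arntl, and WT replicate 2, with 4.41 CPM of Arntl, has Per1 and Nfil3 near the LSD1-mKO mice at 111 and 22.3 CPM.

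Ratios of counts between genes of one library do not depend on the scaling between libraries. Arntl was 1.98%, 3.96% and 2.34% of the Per1 counts in WT and 8.90%, 7.58% and 7.55% in LSD1-mKO. Relative to Nr1d1, whose order it shared within each genotype, Arntl was 5.02%, 3.00% and 4.31% in WT and 5.10%, 7.34% and 6.96% in LSD1-mKO. Both ratios were higher in every LSD1-mKO mouse, the one to Nr1d1 by the smallest margin. The set was picked because Arntl was higher and Per1 lower, so no support is drawn from the separation of ratios that hold either gene. Arntl was also 9.16%, 14.2% and 10.2% of Clock in WT and 23.3%, 22.7% and 20.0% in LSD1-mKO, so the difference in Arntl was not matched by its partner. Against Dbp, an output gene with a D-box binding product, Arntl was 1.36%, 1.48% and 1.57% in WT and 4.77%, 3.02% and 3.94% in LSD1-mKO. Ratios that leave Arntl out mostly overlapped. The counts of Nr1d1 were 27.0%, 49.2% and 36.4% of those of Dbp in WT and 93.6%, 41.2% and 56.6% in LSD1-mKO. The ratios of Per3 to Per2, of Dbp to Per1, of Cry1 to Cry2 and of Clock to Dbp overlapped too, whereas Clock was 21.7%, 27.8% and 22.8% of Per1 in WT and 38.2%, 33.4% and 37.8% in LSD1-mKO.

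A single value per mouse set the activators against the genes of opposite timing. It was the mean log2(CPM + 0.5) of Arntl, Clock and Npas2 minus that of Per1, Per2, Per3, Nr1d1 and Nr1d2. It measured -4.15, -4.49 and -4.02 in WT, and -3.51, -3.89 and -3.64 in LSD1-mKO. The LSD1-mKO mice were above the WT mice, by 0.54 between the means. Without Arntl and Per1, the genes on which the set was picked, the difference was 0.13 and the groups overlapped, at -3.67, -4.51 and -3.57 in WT and -3.61, -4.04 and -3.71 in LSD1-mKO. That difference rested on WT replicate 2, without which it was -0.17. The measure holds Npas2, whose counts were at most 11. With Npas2 also left out, an alternative chosen after the data were seen, the values were -1.41, -1.74 and -1.32 in WT and -1.06, -1.49 and -1.04 in LSD1-mKO, a difference of 0.29 with overlapping groups, or 0.17 without WT replicate 2.

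**Figure D4:**
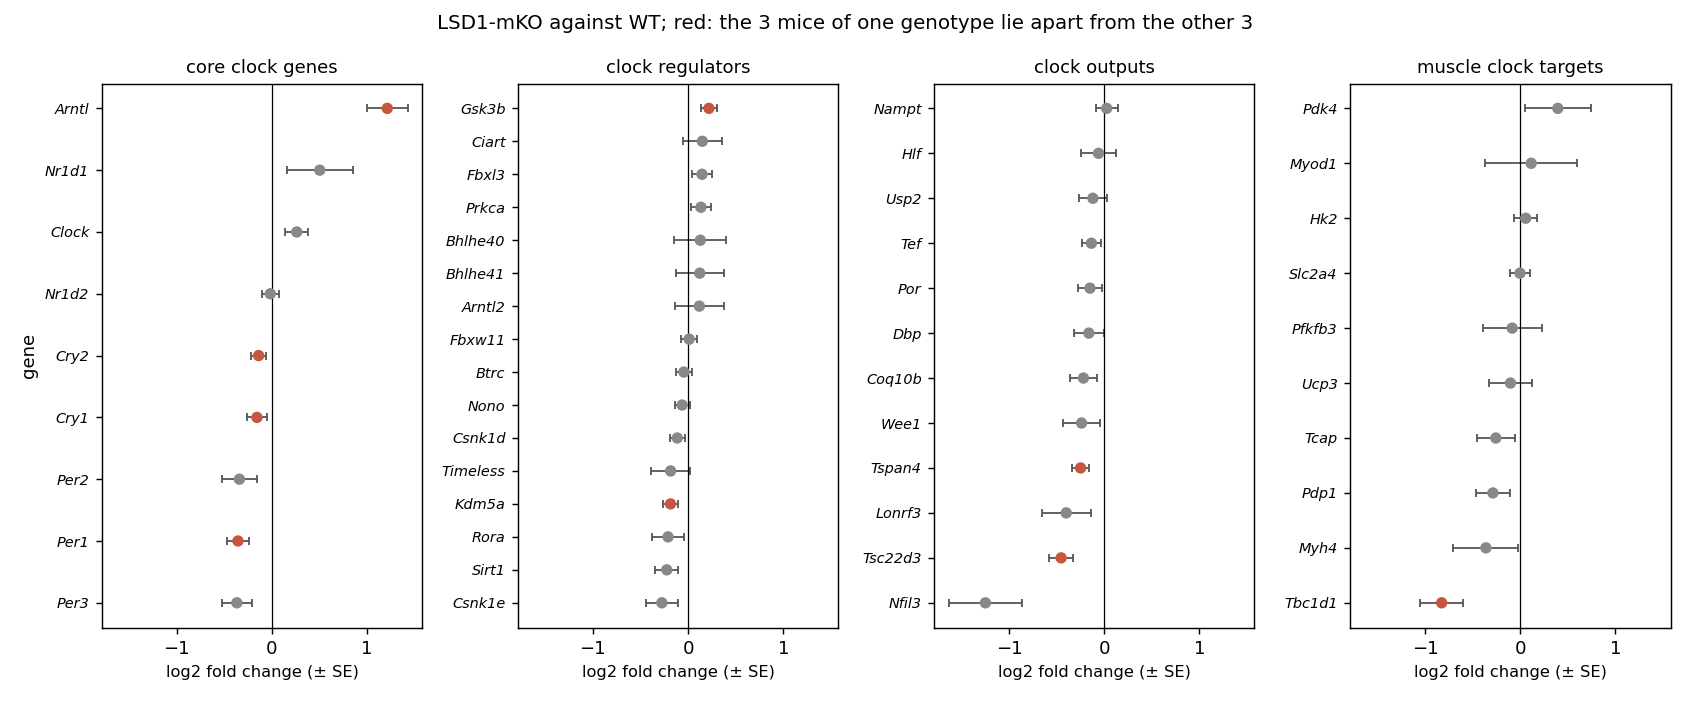
Log2 fold change of LSD1-mKO over WT ± standard error (x axis) from edgeR for the 9 core clock genes tested and for clock regulators (all but 1 of the 17 tested), 12 clock outputs and 10 muscle clock targets (one row per gene); red points are genes whose groups do not overlap. Arntl at 1.21 and Nfil3 at -1.25 lie farthest from 0, and 11 of the 12 outputs lie below 0, where 7027 of all 12828 genes tested do.

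The rest of the pathway was followed in 41 genes that modify the clock proteins, carry its output or are known clock targets in muscle. Of these, 39 were tested, and Rorb and Fbxl21 were too low. At an adjusted p under 0.05 edgeR called 0 of the 39, against 0.0156% of all genes, and DESeq2 called 0, against 0.327%. At an unadjusted p under 0.05 edgeR had 1 higher and 5 lower, against 6.40% of all genes in either direction. The median log2 fold change was -0.11, against -0.02 over all genes tested, of which 7027 of 12828 were negative. For 5 of the 39 the genotypes were apart, as they were for 12.7% of all genes tested.

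Among the 17 regulators tested, 9 had a positive and 8 a negative log2 fold change, with a median of 0.01. The sign of that median depended on the mice included, from -0.04 (without WT replicate 1) to 0.07 (without LSD1-mKO replicate 2). Rora, whose product activates Arntl through the ROR element that REV-ERBs repress, is named here after its values were seen. It measured 106 ± 25.9 CPM in WT and 92.0 ± 7.09 in LSD1-mKO (SD, n = 3 each), with an adjusted p of 0.840 from edgeR with Benjamini-Hochberg adjustment. Gsk3b, a kinase that phosphorylates clock proteins, measured 109.9, 104.3 and 106.2 CPM in WT and 127.8, 113.3 and 132.1 in LSD1-mKO. Kdm5a, a histone demethylase that acts as a coactivator of the clock, measured 48.3, 51.4 and 51.8 CPM in WT and 45.4, 43.5 and 44.5 in LSD1-mKO. Gsk3b was above and Kdm5a below WT in every LSD1-mKO mouse, with log2 fold changes of 0.22 and -0.18 (adjusted p = 0.731 and 0.766, edgeR with Benjamini-Hochberg adjustment).

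Among the 12 outputs, 11 had a negative log2 fold change, with a median of -0.19 (-0.11 without LSD1-mKO replicate 1). Over all genes tested, 7027 of 12828 were negative, with a median of -0.02. Dbp, whose transcripts track E-box activity closely, measured 204, 299 and 215 CPM in WT and 192, 237 and 213 in LSD1-mKO (adjusted p = 0.868, edgeR with Benjamini-Hochberg adjustment). The groups overlapped, and WT replicate 2 was highest. Nfil3, a repressor that binds the D-box and is itself a ROR element gene, measured 76.8, 22.3 and 56.5 CPM in WT and 16.9, 23.0 and 25.4 in LSD1-mKO. WT replicate 2 was as low as the LSD1-mKO mice, and LSD1-mKO differed by -1.25 on the log2 scale (standard error 0.38; adjusted p = 0.619, edgeR with Benjamini-Hochberg adjustment). So the ROR element genes Arntl and Nfil3 lay on opposite sides of 0, and Nfil3 ran against Arntl within WT (replicate 1, 3, 2 from high to low). Within LSD1-mKO the order of Nfil3 was replicate 3, 2, 1, which is not the reverse of that of Arntl (1, 3, 2). Tsc22d3 (GILZ), a clock output that glucocorticoids also induce, measured 386, 325 and 423 CPM in WT and 244, 278 and 307 in LSD1-mKO, without overlap (log2 fold change -0.45, adjusted p = 0.578, edgeR with Benjamini-Hochberg adjustment). Tspan4, a tetraspanin, was likewise lower in every LSD1-mKO mouse, at -0.25 on the log2 scale, and Lonrf3, with overlapping groups, was at -0.40 (adjusted p = 0.726 and 0.787, edgeR with Benjamini-Hochberg adjustment). Leaving out 1 mouse moved Lonrf3 from -0.63 (without LSD1-mKO replicate 1) to -0.17 (without LSD1-mKO replicate 3).

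Among the 10 muscle targets, 3 log2 fold changes were positive and 7 negative, with a median of -0.09 (-0.16 to -0.01 with 1 mouse left out, the latter without WT replicate 1). Tbc1d1, a Rab GTPase-activating protein that restrains glucose transporter traffic, measured 79.4, 41.5 and 80.0 CPM in WT and 41.4, 35.8 and 36.0 in LSD1-mKO. The groups just failed to overlap, since WT replicate 2 was level with LSD1-mKO replicate 1, and LSD1-mKO differed by -0.83 on the log2 scale (standard error 0.23; adjusted p = 0.578, edgeR with Benjamini-Hochberg adjustment). Pdk4, the kinase that inhibits pyruvate dehydrogenase, was at 0.39, Pdp1, the phosphatase that opposes it, at -0.29, and Myh4, the fast myosin of type IIB fibers, at -0.36, all with overlapping groups and adjusted p of 0.781 or more (edgeR with Benjamini-Hochberg adjustment). With 1 mouse left out these ranged from 0.07 (without WT replicate 2) to 0.69 for Pdk4 and from -0.45 to -0.12 (without WT replicate 2) for Pdp1, and Myh4 changed sign, from -0.61 to 0.15 (without WT replicate 1).

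Genes that follow cues able to reset muscle clocks were measured beside the clock genes. Over all genes tested, 7027 of 12828 log2 fold changes were negative. Of 12 glucocorticoid-responsive genes, 11 had a negative log2 fold change, with a median of -0.49. That median was -0.10 without WT replicate 1, the highest WT mouse for 10 of the 12, and -0.78 without WT replicate 2. Sgk1, a glucocorticoid-induced kinase, was the one whose groups did not overlap, where 12.7% of all genes had such groups, and its log2 fold change went from -0.56 to -0.28 without WT replicate 1 (295 ± 91.6 CPM in WT and 201 ± 27.0 in LSD1-mKO, SD, n = 3 each; adjusted p = 0.718, edgeR with Benjamini-Hochberg adjustment). Within WT, replicate 2 was lowest for 11 of these 12 genes and for Per1, where it was lowest for 30.1% of all genes tested. This was not particular to the list, since replicate 2 was also lowest for 10 of 11 fast muscle, 8 of 10 slow muscle and 8 of 9 temperature-responsive genes. Of 13 genes responsive to activity and CREB, 11 had a negative log2 fold change, with a median of -0.46 (-0.72 without LSD1-mKO replicate 1 and -0.28 without LSD1-mKO replicate 2). Sik1, a kinase induced by cyclic AMP, measured 86.0, 59.1 and 110.6 CPM in WT and 41.4, 48.0 and 53.3 in LSD1-mKO. Btg2, an antiproliferative immediate early gene, measured 132, 87.0 and 226 CPM in WT and 56.0, 54.1 and 63.2 in LSD1-mKO. Both were below WT in every LSD1-mKO mouse, were not called by edgeR (log2 fold changes -0.84 and -1.36, adjusted p = 0.503 and 0.377 with Benjamini-Hochberg adjustment) and were called by DESeq2, which called 0.327% of all genes. These 2 of 13 genes lay below WT without overlap, where 6.10% of all genes did. Fosb, too low to test, also had groups that did not overlap. Of the 9 temperature-responsive genes, Hsp90aa1, a heat shock chaperone, was the one with groups apart, against 12.7% of all genes (log2 fold change 0.19, adjusted p = 0.766, edgeR with Benjamini-Hochberg adjustment). The part of these cues in the levels of Per1 and the other clock genes was not tested.

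Over the 6 mice, the genes whose log2 CPM ran closest to Arntl were sought among 10210 genes with a mean of at least 5 CPM. The closest was Spsb4, a substrate adaptor of a ubiquitin ligase, with 2.41, 4.50 and 3.11 CPM in WT and 9.03, 6.51 and 8.01 in LSD1-mKO (Pearson r = 0.995). Next came Cnnm4, a magnesium transporter (0.993), Sgk3, a kinase (0.992), Ak4, a mitochondrial adenylate kinase (0.991), and Rap1gap2, a GTPase-activating protein (0.988). The most opposite were Atg101, an autophagy factor (-0.990), Ptcd1 (-0.982), Itpr2, an inositol trisphosphate receptor (-0.981), Rnf19b (-0.981) and Zbtb2 (-0.980). These r are a description over 6 points that share genotype and library, and were ranked over all 10210 genes. When each mouse was set against its own genotype mean, Spsb4 was again the closest (r rounding to 1.00), Nr1d1 ranked 23 with r = 0.983, and Nfil3 had r = -0.90. Ssfa2, Nid2 and Cd38 were then among the closest, and Slu7, Cops2, Cox16 and Mrpl53 among the most opposite.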

How the data were processed

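Poly(A) RNA from Sol was sequenced by the authors as 75-base single-end reads and aligned to mm10 with STAR; the counting tool, annotation and use of strand are not given in the sources used here. The deposited values are estimated counts per gene without normalization, as the authors made them; fewer than 10% of those of a library are not whole, and they were rounded. A deposited DESeq2 table holds the authors' fold changes and p-values and was not used. Columns were matched to mice by the numbers in their headings. Counts were analysed with edgeR 4.0.16 (TMM, filterByExpr by genotype, quasi-likelihood test, Benjamini-Hochberg adjustment over 12828 genes, threshold 0.05) in R 4.3.3, with DESeq2 1.42.0 and limma 3.58.1 (voom) as alternatives. TPM were computed with the longest protein-coding transcript of GENCODE vM21, which covered 99.68% of the counts. Poisson intervals are exact at 95%.

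The members and gene lists were chosen with earlier results of these data known. Genes were named by rule: every member; genes of the clock lists past the threshold or with groups apart, and 5 further by fold change with a mean of at least 5 CPM; cue genes with groups apart; the 5 genes most like and 5 most opposite to Arntl; Kdm1a; and slow muscle markers. Bhlhe41, Dbp, Hlf, Rora and Thra fall outside the rule. Alternatives were the test, the scaling, the filter, each mouse left out and the replicate number as a block. Libraries differed by more than sampling noise (chi-square per gene 10.1 or more). On simulated data with 197 of 12707 genes changed 2-fold or 4-fold, edgeR called 173 and 12 unchanged genes. Genes were drawn independently with the fitted dispersions. Shifts shared by the genes of a mouse and changes below 2-fold were therefore not covered. A few genes that the rule names, and 1 clock regulator, are not reported here. Lists for fast muscle, adipocytes, red blood cells and Schwann cells were also measured, and edgeR called no gene of them.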

Additional observations from a re-analysis of the deposited data

How the results depend on the processing

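The log2 fold changes of the 9 core clock genes tested were compared with 14 alternatives each, and all 126 values moved by less than 1 SD of the mice. For the fits with 1 mouse left out this bound could hardly fail, since dropping 1 of 3 mice shifts a group mean by less than that SD. No stability is read from it. In those fits Nr1d1 ran from 0.22 to 0.99 and Per2 from -0.54 to -0.18. Nr1d2 changed sign without WT replicate 2 (0.029) and without LSD1-mKO replicate 1 (0.015). Over all genes, 1 was higher and 1 lower at an adjusted p under 0.05; DESeq2 gave 33 and 9, limma voom 2 higher, and no filter on low counts 8 and 3. With 1 mouse left out these counts ran from 1 to 2 higher (2 without WT replicate 1) and from 0 to 1 lower (0 without WT replicate 2 or without any one LSD1-mKO mouse). The log2 fold change of Kdm1a then ran from -1.30 to -1.17, with adjusted p from 0.111 to 0.209 in those 4 fits. Replicate numbers did not pair the mice (correlations of deviations -0.36, -0.10 and -0.15). With the replicate block, 0 genes were lower, Kdm1a stayed at -1.23 with an adjusted p of 0.299, and no other count moved. The activator value differed between genotypes by 0.54, by 0.13 without Arntl and Per1, by 0.80 without Npas2 and by 0.29 without all 3; Npas2 was left out after the data were seen. With 1 mouse also left out, likewise added after the data were seen, the value without Arntl and Per1 was 0.254, -0.165 and 0.302 without WT replicates 1, 2 and 3, and 0.044, 0.256 and 0.09 without LSD1-mKO replicates 1, 2 and 3. The value without all 3 genes was 0.168 without WT replicate 2, 0.226 and 0.215 without LSD1-mKO replicates 1 and 3, and up to 0.437 otherwise. The counts of 0 for the 39 other clock genes held in every alternative. Arntl rests on 23 to 124 counts per library.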
